A study of Mus musculus with 9 samples.

Results

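The genes described here are 10 transcripts of neutrophil granules and calprotectin: Ngp, Camp, Ltf, Mmp8, S100a8, S100a9, Retnlg, Mpo, Elane and Chil3. They were found by matching the Ensembl identifiers of the deposited table to their symbols, and 10 of its 45904 identifiers belonged to them. RNA came from whole sciatic dorsal root ganglia, which hold the cell bodies of the sensory neurons that send axons into the sciatic nerve, of C57BL/6 mice. The 3 groups were aged mice (20 to 22 months) with sciatic nerve injury, aged mice of that age with sham surgery, and young mice (8 to 10 weeks) with sham surgery, all taken 24 h after the operation. Each group had 3 libraries, and each library held ganglia pooled from 2 mice. Young mice with nerve injury were not analysed here. Whether blood was flushed from the vessels before dissection is not given in the sources used here.

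Neutrophils are short-lived white cells that mature in bone marrow and fill their granules in a fixed order as they do so. Primary (azurophil) granules, packed in early precursors, carry myeloperoxidase and serine proteases, while secondary (specific) and tertiary granules, packed later, carry lactoferrin, cathelicidin, neutrophilic granule protein and matrix metalloproteinases. S100a8 and S100a9 pair to form calprotectin, a calcium- and zinc-binding protein that makes up much of the neutrophil cytosol and acts as an alarm signal when released. C/EBP factors and PU.1 are known drivers of granule genes during this maturation. In peripheral ganglia neutrophils are normally few, and they are among the blood cells that can enter nerve tissue after an injury.

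Ngp, Camp and Ltf lie on 1 chromosome, and S100a8 and S100a9 are neighbours on another. In mm10 with the GENCODE M21 annotation, Camp covers chr9:109847379-109849617 on the minus strand, Ngp chr9:110419747-110423012 on the plus strand and Ltf chr9:111019271-111042767 on the plus strand. The gap between Camp and Ngp is 570.1 kb and that between Ngp and Ltf 596 kb. Mmp8 is farther off on the same chromosome, at chr9:7558456-7568485 on the plus strand. S100a8 (chr3:90668978-90670035, plus strand) and S100a9 (chr3:90692632-90695721, minus strand) are 22.6 kb apart, and Chil3 is at chr3:106147554-106167564 on the minus strand. Retnlg is at chr16:48872621-48874496, Mpo at chr11:87793581-87804413 and Elane at chr10:79886247-79888215, all on the plus strand.

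The promoters of the 5 genes that carry the results below are shown because their transcripts moved together. Each is the window of 300 bases from 250 before to 50 after the start in RefSeq, build GRCm38.p6, read 5′ to 3′ on the strand of the gene. The windows are chr9:110419558-110419857 (plus) for Ngp, chr9:109849407-109849706 (minus) for Camp, chr9:111019042-111019341 (plus) for Ltf, chr3:90668821-90669120 (plus) for S100a8 and chr3:90695672-90695971 (minus) for S100a9. Capitals mark matches on either strand to TTNNGNAA, a short form of the C/EBP motif.
Ngp: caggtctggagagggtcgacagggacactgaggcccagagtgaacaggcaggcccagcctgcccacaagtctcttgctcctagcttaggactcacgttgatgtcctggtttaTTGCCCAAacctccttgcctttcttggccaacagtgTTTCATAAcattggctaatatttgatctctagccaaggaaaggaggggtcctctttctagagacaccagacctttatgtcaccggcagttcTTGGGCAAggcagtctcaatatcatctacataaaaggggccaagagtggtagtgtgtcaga
Camp: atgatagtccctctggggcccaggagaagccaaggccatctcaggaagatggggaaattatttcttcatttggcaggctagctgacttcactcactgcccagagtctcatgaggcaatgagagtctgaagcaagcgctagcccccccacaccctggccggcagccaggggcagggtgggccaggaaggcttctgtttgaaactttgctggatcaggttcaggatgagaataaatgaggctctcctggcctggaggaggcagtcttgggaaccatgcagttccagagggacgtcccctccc
Ltf: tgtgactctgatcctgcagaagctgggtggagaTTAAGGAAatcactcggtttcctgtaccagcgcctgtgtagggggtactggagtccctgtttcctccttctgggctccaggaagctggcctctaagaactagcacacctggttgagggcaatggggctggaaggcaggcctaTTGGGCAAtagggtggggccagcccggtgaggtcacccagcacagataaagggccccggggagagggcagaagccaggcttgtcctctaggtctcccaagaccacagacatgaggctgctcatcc
S100a8: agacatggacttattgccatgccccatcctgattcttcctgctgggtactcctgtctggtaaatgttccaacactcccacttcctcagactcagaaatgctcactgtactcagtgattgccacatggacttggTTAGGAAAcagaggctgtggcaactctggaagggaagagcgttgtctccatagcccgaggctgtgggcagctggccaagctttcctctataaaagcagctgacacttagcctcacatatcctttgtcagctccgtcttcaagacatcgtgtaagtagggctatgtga
S100a9: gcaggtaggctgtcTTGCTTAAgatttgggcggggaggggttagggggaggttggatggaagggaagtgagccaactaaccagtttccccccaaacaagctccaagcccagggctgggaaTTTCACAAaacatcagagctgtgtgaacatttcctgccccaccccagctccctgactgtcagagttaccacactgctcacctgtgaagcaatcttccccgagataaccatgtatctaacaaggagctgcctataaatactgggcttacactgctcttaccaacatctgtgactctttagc

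The C/EBP letters stood in the windows of 7 of the 10 genes, against 40.7% of all 32851 RefSeq promoter windows of this length. Ngp had 3 matches, the nearest to its start being TTGGGCAA at position -11, and Ltf had the same 8 letters at -75. S100a8 had 1 match at -117 and S100a9 had matches at -236 and -130. Camp had none in this window, nor did Elane and Mpo. A core PU.1 motif, GAGGAA on either strand, was in 5 of the 10 windows, against 28.3% of all windows, and TATAAA on either strand was in 4 of the 10, against 13.6%. In S100a8 the TATA letters began at -30. The other matches lay at the start itself, at 1 in S100a9, -3 in Chil3 and -3 on the opposite strand in Mmp8. The 3 motifs did not overlap each other in the 5 windows shown (0 overlaps). These matches are strings of letters, and no binding was measured here.

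The 9 libraries held 11155940 to 16154387 fragments, as far as the steps between the deposited values show, and 20237 to 21100 identifiers were above 0 in each. Of 17601 genes tested with limma, 445 were called higher and 262 lower in aged sham than in young sham ganglia, and 432 higher and 291 lower in aged injury than in aged sham ganglia, at a Benjamini-Hochberg adjusted p under 0.05. With the libraries set to equal medians the splits were 281 higher and 536 lower for age, and 287 higher and 294 lower for injury. As a check of the injury label, Atf3, a transcription factor switched on in axotomised neurons, was at 247 ± 47.7 FPKM in aged injury and 49.99 ± 39.5 FPKM in aged sham libraries (SD, n = 3 each). Aged sham replicate 1 held most of that spread, with Atf3 at 95.6 FPKM, where replicates 2 and 3 of that group had 27.1 and 27.3 FPKM. Tubb3, the neuronal tubulin, was at 1153 to 1658 FPKM in the 9 libraries. Age and sex cannot be told apart in what is called the age comparison below (aged sham against young sham). The 5 aged libraries other than aged sham replicate 1 had Xist, the transcript of the inactive X chromosome of females, at 9.77 to 13.1 FPKM and next to no Ddx3y, a Y-linked gene (0.013 FPKM or less). The young sham libraries had the reverse, with Xist at 0.02 FPKM or less and Ddx3y at 13.8 to 15.7 FPKM. Replicate 1 of aged sham held both, Xist at 1.75 FPKM and Ddx3y at 10.9 FPKM.

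All 10 genes were detected in all 9 libraries and had a group mean of at least 0.2 FPKM (fragments counted per gene length and library depth) in each of the 3 groups. FPKM is a level per length, so levels can be set against each other. The order of the means was the same in the 3 groups: S100a9, S100a8, Ngp, Camp, Retnlg, Ltf, Chil3, Mmp8, Elane and Mpo. In the aged sham libraries the ranges of S100a9 and S100a8 overlapped, as did those of Camp and Retnlg, Retnlg and Ltf, Chil3 and Mmp8, and Elane and Mpo. Within each single aged sham library the first gene of each of these pairs was still the higher one. The sum of the 10 was 191 to 327 FPKM in aged injury, 345 to 629 FPKM in aged sham and 152 to 243 FPKM in young sham libraries. In whole ganglia, fewer neutrophils and less RNA per neutrophil cannot be told apart.

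**Figure D1:**
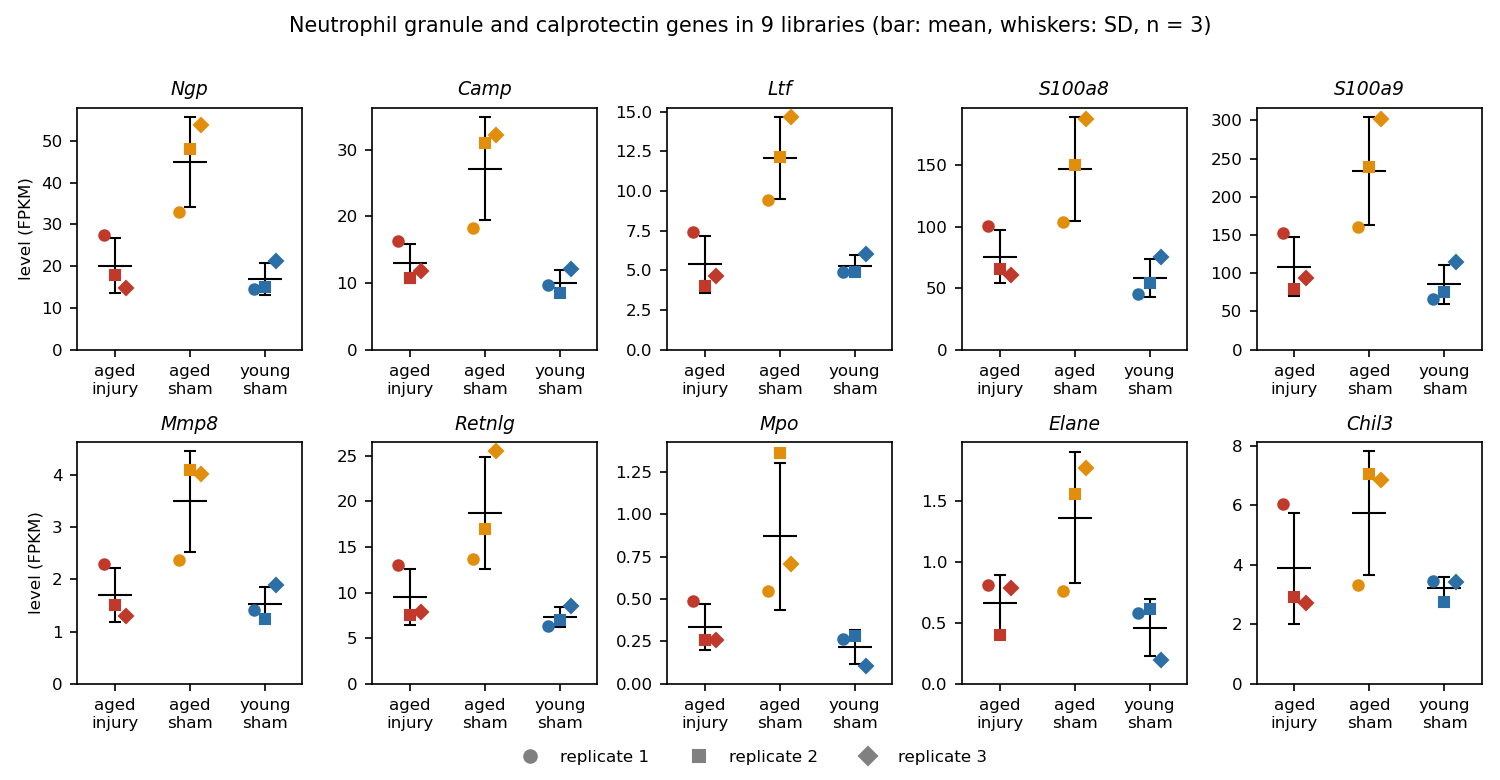
Level in FPKM of each of the 10 genes (y axis, from 0, own scale per panel) in aged injury, aged sham and young sham libraries (x axis). Points are libraries, marked by replicate, with the mean as a bar and the SD as whiskers (n = 3). Aged sham holds the highest mean in every panel, for example 44.9 FPKM for Ngp against 20.1 FPKM in aged injury and 16.9 FPKM in young sham libraries.

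Among secondary granule genes, Ngp, Camp and Ltf passed the test in both the age and the injury comparison, higher in aged sham than in young sham ganglia and lower in aged injury than in aged sham ganglia. Ngp, a cystatin-like protein of specific granules, was at 27.5, 18.0 and 14.8 FPKM in aged injury libraries, 32.9, 48.0 and 53.9 FPKM in aged sham libraries and 14.6, 14.9 and 21.3 FPKM in young sham libraries. The aged sham libraries lay above all 6 others, and the aged injury and young sham libraries overlapped. In aged sham ganglia Ngp was 2.63-fold higher than in young sham ganglia (log2 change 1.39, SE 0.255, adjusted p = 0.0331, limma). In aged injury ganglia it was 2.26-fold lower than in aged sham ganglia (log2 change -1.18, SE 0.255, adjusted p = 0.0385).

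Camp, the precursor of the antimicrobial peptide cathelicidin, was at 16.3, 10.7 and 11.9 FPKM in aged injury libraries, 18.2, 31.0 and 32.3 FPKM in aged sham libraries and 9.72, 8.43 and 12.1 FPKM in young sham libraries. Again every aged sham library was above every other, with aged sham replicate 1 close to aged injury replicate 1. Camp rose 2.63-fold in aged sham against young sham ganglia (log2 change 1.39, SE 0.238, adjusted p = 0.0284) and fell 2.06-fold in aged injury against aged sham ganglia (log2 change -1.04, SE 0.238, adjusted p = 0.0451). Ltf, the iron-binding protein lactoferrin, was at 7.45, 4.04 and 4.62 FPKM in aged injury libraries, 9.46, 12.1 and 14.7 FPKM in aged sham libraries and 4.92, 4.90 and 6.04 FPKM in young sham libraries. Its young sham libraries were close together and lay within the range of the aged injury ones. Ltf rose 2.24-fold with age (log2 change 1.16, SE 0.227, adjusted p = 0.0360) and fell 2.27-fold with injury (log2 change -1.18, SE 0.227, adjusted p = 0.0246).

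Mmp8, neutrophil collagenase, was at 2.30, 1.52 and 1.31 FPKM in aged injury libraries, 2.38, 4.09 and 4.02 FPKM in aged sham libraries and 1.42, 1.25 and 1.90 FPKM in young sham libraries. The lowest aged sham library and the highest aged injury library were nearly level. Mmp8 rose 2.19-fold in aged sham against young sham ganglia, close to the threshold (log2 change 1.13, SE 0.264, adjusted p = 0.0495). The injury difference was -0.99 on the log2 scale (SE 0.264) and did not pass the test (adjusted p = 0.0741).

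Of the calprotectin subunits, both passed the test for age and neither for injury. S100a8 was at 100.8, 65.7 and 60.7 FPKM in aged injury libraries, 103, 150.5 and 188 FPKM in aged sham libraries and 44.9, 54.4 and 75.2 FPKM in young sham libraries. S100a9 was at 152, 79.5 and 93.4 FPKM in aged injury libraries, 161, 239 and 302 FPKM in aged sham libraries and 66.3, 75.8 and 114 FPKM in young sham libraries. For both, aged sham replicate 1 stood only just above aged injury replicate 1, while the other 2 aged sham libraries were clear of every other library. In aged sham against young sham ganglia S100a8 rose 2.51-fold (log2 change 1.33, SE 0.267, adjusted p = 0.0378) and S100a9 rose 2.72-fold (log2 change 1.44, SE 0.301, adjusted p = 0.0409). In aged injury against aged sham ganglia the log2 differences were -0.95 for S100a8 (95% interval -1.56 to -0.35, adjusted p = 0.0867) and -1.12 for S100a9 (95% interval -1.8 to -0.44, adjusted p = 0.0773).

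The primary granule genes Mpo and Elane were the lowest of the 10. Mpo, myeloperoxidase, was at 0.488, 0.256 and 0.258 FPKM in aged injury libraries, 0.544, 1.36 and 0.703 FPKM in aged sham libraries and 0.266, 0.282 and 0.105 FPKM in young sham libraries. Elane, neutrophil elastase, was at 0.807, 0.396 and 0.784 FPKM in aged injury libraries, 0.760, 1.56 and 1.77 FPKM in aged sham libraries and 0.577, 0.612 and 0.195 FPKM in young sham libraries. All aged sham libraries of Mpo were above the 6 others, while for Elane aged sham replicate 1 fell within the range of the aged injury libraries. Few fragments stood behind these levels, 4 to 52 per library for Mpo and 2 to 21 for Elane, against 456 to 2027 for S100a9. Neither passed the test for age, with log2 differences of 1.58 for Mpo (SE 0.405, adjusted p = 0.0586) and 1.41 for Elane (SE 0.430, adjusted p = 0.0860). These differences were of the size seen in the secondary granule genes, with wider intervals, from 0.66 to 2.49 for Mpo and from 0.44 to 2.38 for Elane. Aged injury against aged sham gave -1.11 for Mpo (adjusted p = 0.168) and -0.92 for Elane (adjusted p = 0.280). Mpo overlaps the antisense gene Gm11505, and whether fragments were counted by strand is not given in the sources used here.

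Retnlg, a resistin-like protein secreted by mouse myeloid cells, was at 13.0, 7.56 and 7.91 FPKM in aged injury libraries, 13.7, 17.0 and 25.5 FPKM in aged sham libraries and 6.36, 7.01 and 8.55 FPKM in young sham libraries. It rose 2.47-fold in aged sham against young sham ganglia (log2 change 1.31, SE 0.257, adjusted p = 0.0361). Its injury difference of -0.97 did not pass the test (SE 0.257, adjusted p = 0.0732). Chil3, a chitinase-like protein of mouse neutrophils and of alternatively activated macrophages, had the smallest log2 change of the 10 in both the age and the injury comparison. It was at 6.03, 2.91 and 2.70 FPKM in aged injury libraries, 3.33, 7.03 and 6.85 FPKM in aged sham libraries and 3.44, 2.76 and 3.40 FPKM in young sham libraries, so all 3 groups overlapped. Its log2 differences were 0.75 for age (95% interval -0.02 to 1.52, adjusted p = 0.198) and -0.57 for injury (95% interval -1.34 to 0.20, adjusted p = 0.402). Chil4, a close copy of Chil3, was listed at 0 in every library, and Retnla, a relative of Retnlg, was at 1.20 to 3.51 FPKM.

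Counted together, 7 of the 10 genes were called higher in aged sham than in young sham ganglia, against 2.53% of all genes tested. The aged sham libraries lay above all young sham libraries for 9 of the 10, against 17.7% of all genes, and the median log2 change was 1.36 for the 10 and 0.05 for all genes. The count of 7 was 7 without aged sham replicate 1 and 5 without young sham replicate 2, but 4 without aged injury replicate 1, 2 without aged injury replicate 2, and 0 without aged injury replicate 3, aged sham replicate 2, aged sham replicate 3, young sham replicate 1 or young sham replicate 3. It was also 0 when the 2 groups were fitted alone and 1 with no filter on low values, while no log2 change of the 10 turned negative without any 1 library (lowest 0.57, for Chil3).

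In the injury comparison 3 of the 10 were called lower in aged injury than in aged sham ganglia, against 1.65% of all genes tested. The aged injury libraries lay below all aged sham libraries for 8 of the 10, against 13.7% of all genes. The median log2 change was -1.02 for the 10 and -0.01 for all genes. The count of 3 was 4 without aged sham replicate 1 and 2 without aged injury replicate 1, 1 without young sham replicate 2 or without young sham replicate 3, and 0 without aged injury replicate 2, aged injury replicate 3, aged sham replicate 2, aged sham replicate 3 or young sham replicate 1. It was also 0 when the 2 groups were fitted alone and 1 with no filter on low values, and 5 with limma voom on recovered fragments. The age and the injury comparison share the aged sham libraries, so a high aged sham level enters both, and their opposite signs are not 2 independent observations.

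**Figure D2:**
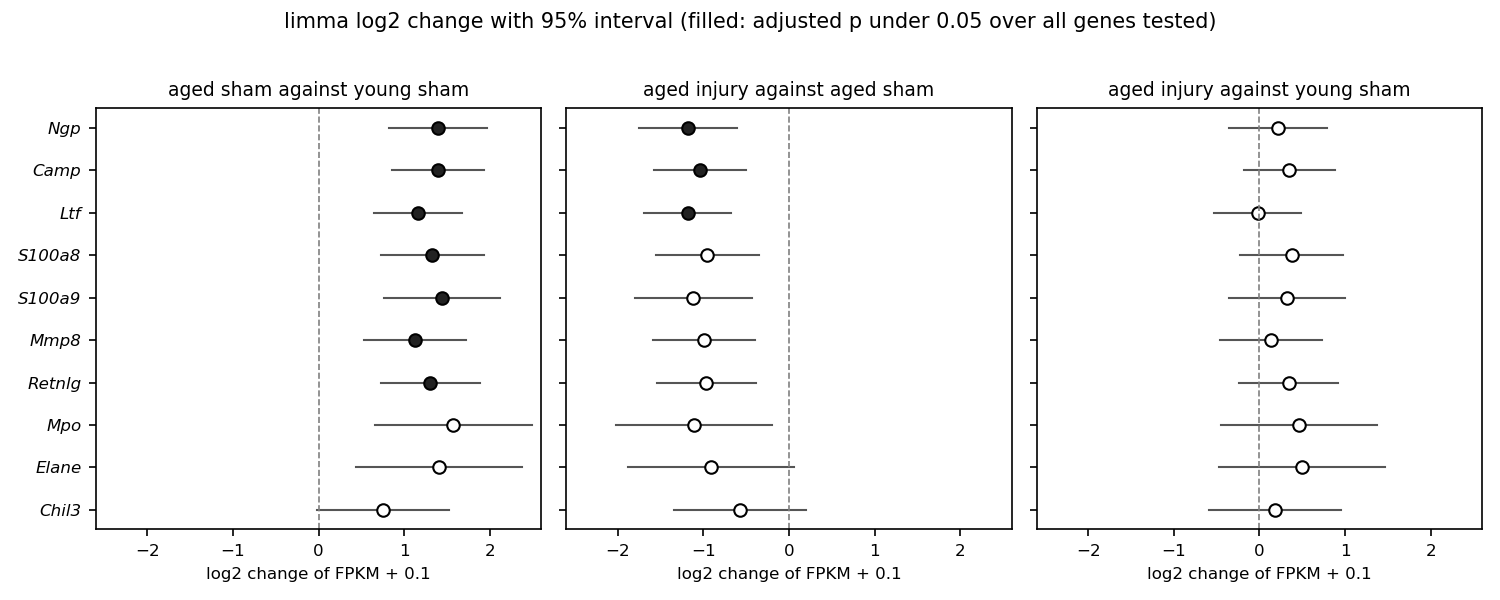
Log2 change of FPKM + 0.1 (x axis) of the 10 genes (rows) in each comparison, with 95% intervals from limma as lines and filled points for an adjusted p under 0.05 over all genes tested. The filled points are 7 for age, 3 for injury in aged mice and 0 for aged injury against young sham.

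Between aged injury and young sham ganglia none of the 10 genes passed the test (0 of 10 with limma, 0 at an unadjusted p under 0.05 and 0 with limma voom on recovered fragments), against 13.1% of all genes called and 29.4% at an unadjusted p under 0.05. The libraries of both groups overlapped for all 10, while of all genes 19.9% had aged injury above young sham without overlap and 15.5% had it below. Log2 differences ran from -0.021 for Ltf to 0.50 for Elane, with adjusted p between 0.368 and 0.968. The 95% intervals were -0.36 to 0.79 for Ngp, -0.19 to 0.89 for Camp, -0.53 to 0.49 for Ltf, -0.23 to 0.98 for S100a8 and -0.36 to 1.0 for S100a9. Changes within these intervals were not excluded. This comparison shares its libraries with the other 2. Its groups differ in age, in injury and, by Xist and Ddx3y, in sex, and these cannot be told apart.

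**Figure D3:**
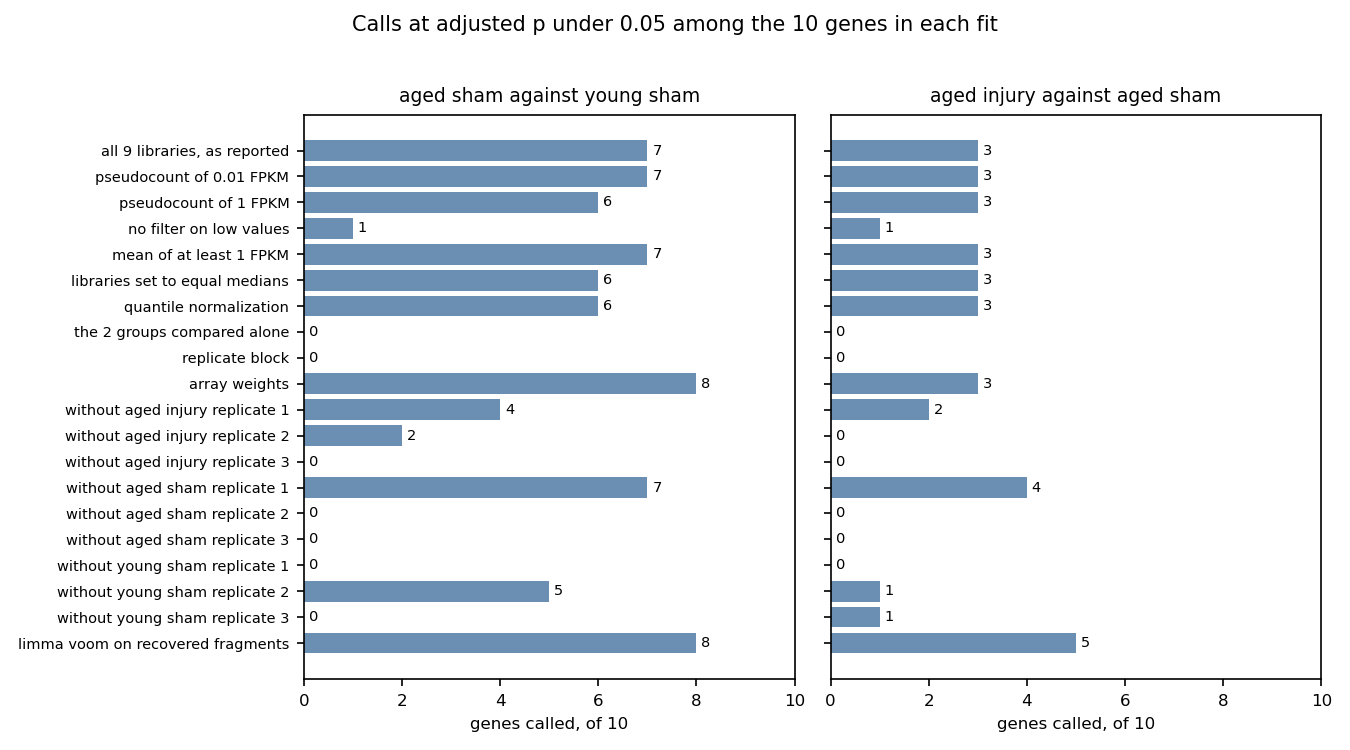
Number of the 10 genes called at an adjusted p under 0.05 (x axis, from 0 to 10) in each fit (rows), for age on the left and injury in aged mice on the right. The age count ran from 0 to 8 and the injury count from 0 to 5 across the fits shown.

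Within the 9 libraries most of the genes moved together. The mean of their log2 levels, set to 0 at the young sham mean, was 0.77, 0.01 and 0.08 in aged injury libraries, 0.79, 1.49 and 1.59 in aged sham libraries and -0.05, -0.04 and 0.09 in young sham libraries. Aged injury replicate 1 and aged sham replicate 1 were therefore nearly level, between the other libraries of either group. Aged sham replicate 1 also had the highest level among aged sham libraries of all 5 neuronal injury genes measured, among them the neuropeptide gene Gal, at 47.6 FPKM against 27.7 and 23.9 FPKM, and the transcription factor Sox11, at 3.16 FPKM against 1.34 and 1.04 FPKM. The part of this in the granule gene levels of that library was not tested, and the calls without it are given above. Over the 9 libraries, which share their depth and scaling across genes, Pearson's r of the 45 pairs ran from 0.685 (Mmp8 and Elane) to 0.991 (S100a8 and S100a9), with a median of 0.895. With the group means taken out, the same 45 pairs ran from 0.0899 (Ngp and Elane) to 0.969 (S100a8 and S100a9), with a median of 0.871. The 2 primary granule genes stood apart here from Ngp, Camp, Ltf, S100a8, S100a9, Mmp8 and Retnlg, but less so from Chil3. The 14 pairs of Mpo or Elane with those 7 genes were at 0.0899 to 0.358, while the 21 pairs among the 7 were at 0.826 to 0.969. Mpo with Elane was at 0.731, Chil3 with Mpo at 0.609 and Chil3 with Elane at 0.467. Chil3 with the 7 genes ran from 0.799 to 0.932. With the group means left in, the 14 pairs were at 0.685 to 0.839 and the 21 pairs at 0.942 to 0.991. Mpo rested on 4 to 52 fragments per library and Elane on 2 to 21. The part of these low counts in the correlations was not tested.

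The proportions between genes were also compared by library. S100a9 was 1.21 to 1.61 times S100a8 in single libraries, and Ngp was 1.24 to 1.80 times Camp. Such ratios rest on the lengths behind the deposited values, which for S100a8, Camp and Ltf differ from the annotated ones. The 2 calprotectin genes summed to 3.80 to 4.94 times the sum of Ngp, Camp and Ltf. Mpo and Elane together were 0.00760 to 0.0333 times that sum, in proportion the widest range of the ratios computed. The low end came from young sham replicate 3, where Mpo had 4 fragments and Elane 2. Chil3 over the sum of Ngp, Camp and Ltf was 0.0977 ± 0.0175 in aged injury, 0.0667 ± 0.0111 in aged sham and 0.101 ± 0.0158 in young sham libraries (SD, n = 3 each). It was lowest in aged sham, where that sum was highest, which restates the smaller change of Chil3. That ratio was not tested.

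Some neutrophil genes outside the 10 also rose with age. For the counts in the lists that follow, 26.3% of all genes were at an unadjusted p under 0.05 for age and 19.8% for injury. Of 9 other secondary and tertiary granule genes tested, 4 rose with age (limma; 9 at an unadjusted p under 0.05 and 5 with voom). The median log2 change of the 9 was 1.20. Lcn2, the iron-siderophore-binding lipocalin, rose 2.82-fold (8.50 ± 1.67 FPKM in aged sham, 2.94 ± 0.441 FPKM in young sham, adjusted p = 0.0331, limma). Mmp9, gelatinase B of tertiary granules, rose 2.31-fold (adjusted p = 0.0306), Pglyrp1, a peptidoglycan-binding protein, rose 3.69-fold (adjusted p = 0.0342), and Lyz2, lysozyme, which macrophages also make, rose 2.84-fold (adjusted p = 0.0495). In aged injury against aged sham ganglia 0 of these 9 passed (limma; 3 at an unadjusted p under 0.05 and 1 with voom), with a median of -0.68. Of 3 other primary granule and precursor genes tested, Prtn3, proteinase 3, rose 2.25-fold with age (1.01 ± 0.267 FPKM in aged sham, 0.393 ± 0.106 FPKM in young sham, limma adjusted p = 0.0394). The median of the 3 was 1.17, with 2 at an unadjusted p under 0.05 and 1 called with voom. Ms4a3, a gene of early granulocyte precursors and the most abundant of the 3, went the other way, at 4.34, 5.05 and 3.17 FPKM in aged injury libraries, 6.14, 5.67 and 4.45 FPKM in aged sham libraries and 5.25, 6.20 and 7.52 FPKM in young sham libraries. Its log2 differences were -0.22 for aged sham against young sham (adjusted p = 0.502) and -0.59 for aged injury against young sham (adjusted p = 0.0752). In the injury comparison 0 of the 3 passed (0 at an unadjusted p under 0.05 and 0 with voom), with a median of -0.49.

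Of 10 surface receptors of mature neutrophils tested, 1 rose with age: Csf3r, the receptor for granulocyte colony-stimulating factor, at 1.29 ± 0.0763 FPKM in aged sham and 0.620 ± 0.0650 FPKM in young sham libraries (1.93-fold, adjusted p = 0.0232). For age, 9 of the 10 had a positive log2 change, with a median of 0.81 (5 at an unadjusted p under 0.05, 2 with voom). Il1r2 at 1.62 (limma adjusted p = 0.0646) and Clec4d at 1.23 (adjusted p = 0.0983) did not pass. In aged injury against aged sham ganglia 0 of 10 passed (limma; 2 at an unadjusted p under 0.05 and 0 with voom), with Csf3r at -0.51 (adjusted p = 0.0946) and the chemokine receptor Cxcr2 at -0.91 (adjusted p = 0.141). Itgam, the CD11b integrin chain shared with macrophages, rose 1.69-fold in aged injury against young sham ganglia (adjusted p = 0.0338). Its age difference was 1.73-fold and did not pass (limma adjusted p = 0.0527). Ly6g, a surface marker of mouse neutrophils, was at 2.21, 1.09 and 0.477 FPKM in aged injury libraries, 3.24, 0.800 and 2.77 FPKM in aged sham libraries and 1.13, 1.44 and 2.40 FPKM in young sham libraries. It did not follow the granule genes library by library: aged sham replicate 2, with the second highest granule level, was below every young sham library. The log2 differences of Ly6g were 0.29 for age (SE 0.591, adjusted p = 0.791) and -0.82 for injury (SE 0.591, adjusted p = 0.5003). Cxcr4, a receptor that retains neutrophils in marrow and is also found on other cells, was at -0.20 for age (adjusted p = 0.475).

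Genes of recruitment, transcription and calprotectin sensing gave few calls. Of the 3 chemoattractant genes tested of 7 listed (Cxcl1, Cxcl12 and Il1b), 0 passed for age (0 at an unadjusted p under 0.05, 0 with voom) and 0 for injury (again 0 and 0), with Cxcl1, a ligand of Cxcr2, at 0.79 on the log2 scale in aged injury against aged sham ganglia (adjusted p = 0.320). Of 5 myeloid transcription factors tested, 0 passed for age (3 at an unadjusted p under 0.05, 0 with voom) and 0 for injury (1 and 0). Of all genes, 26.3% and 19.8% were at an unadjusted p under 0.05 in these 2 comparisons. Cebpd, a C/EBP factor induced in inflammation, rose 2.82-fold in aged injury against young sham ganglia (14.6 ± 1.18 and 5.37 ± 2.20 FPKM, adjusted p = 0.00694). Cebpe, which in mouse is required for secondary granules, was at 0.374 ± 0.227 FPKM in aged injury, 0.507 ± 0.228 FPKM in aged sham and 0.308 ± 0.0742 FPKM in young sham libraries. The calprotectin receptor genes Tlr4, Ager and Bsg gave 0 of 3 calls for age (1 at an unadjusted p under 0.05, 0 with voom) and 0 of 3 for injury (0 and 0).

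Markers of other blood cells stood beside these results as follows. Erythroid genes, 7 tested of 9 listed, summed to 183 to 298 FPKM in aged injury, 308 to 484 FPKM in aged sham and 136 to 376 FPKM in young sham libraries, so aged sham lay above aged injury without overlap, as for the granule genes. The order of single libraries differed. Aged sham replicates 1, 2 and 3 had erythroid sums of 484, 308 and 387 FPKM, and 345, 511 and 629 FPKM for the 10 granule and calprotectin genes. The median log2 change of the erythroid genes was 0.67 for age and -0.90 for injury, and 0 of 7 passed in either comparison (3 and 2 at an unadjusted p under 0.05, 1 and 1 with voom). Slc4a1, the red cell anion exchanger, was the nearest to a call, at 0.93 for age (adjusted p = 0.0531) and -0.96 for injury (adjusted p = 0.0505). Hemoglobin genes have close copies, so their single values are uncertain. The part of blood content in the granule gene result was not tested.

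The sums of the monocyte and macrophage genes overlapped between aged injury and aged sham, at 86.0 to 127 FPKM in aged injury, 79.3 to 131 FPKM in aged sham and 51.2 to 54.2 FPKM in young sham libraries. Of 12 tested, 4 rose with age: C1qb, C1qc and Cd68, which are abundant in tissue macrophages, and Csf1r, the receptor for their growth factor. In aged injury against aged sham ganglia 1 rose, the mannose receptor Mrc1 (1.50-fold, adjusted p = 0.0482), and the median was 0.08. Against young sham ganglia 7 of 12 rose in aged injury, with a median of 0.70. Of genes of B cell precursors in bone marrow, 1 of 6 passed the filter and Rag2 was at 0 in all libraries. Their sum was 0.286 to 1.60 FPKM in aged injury, 0.396 to 1.37 FPKM in aged sham and 0.334 to 0.409 FPKM in young sham libraries.

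**Figure D4:**
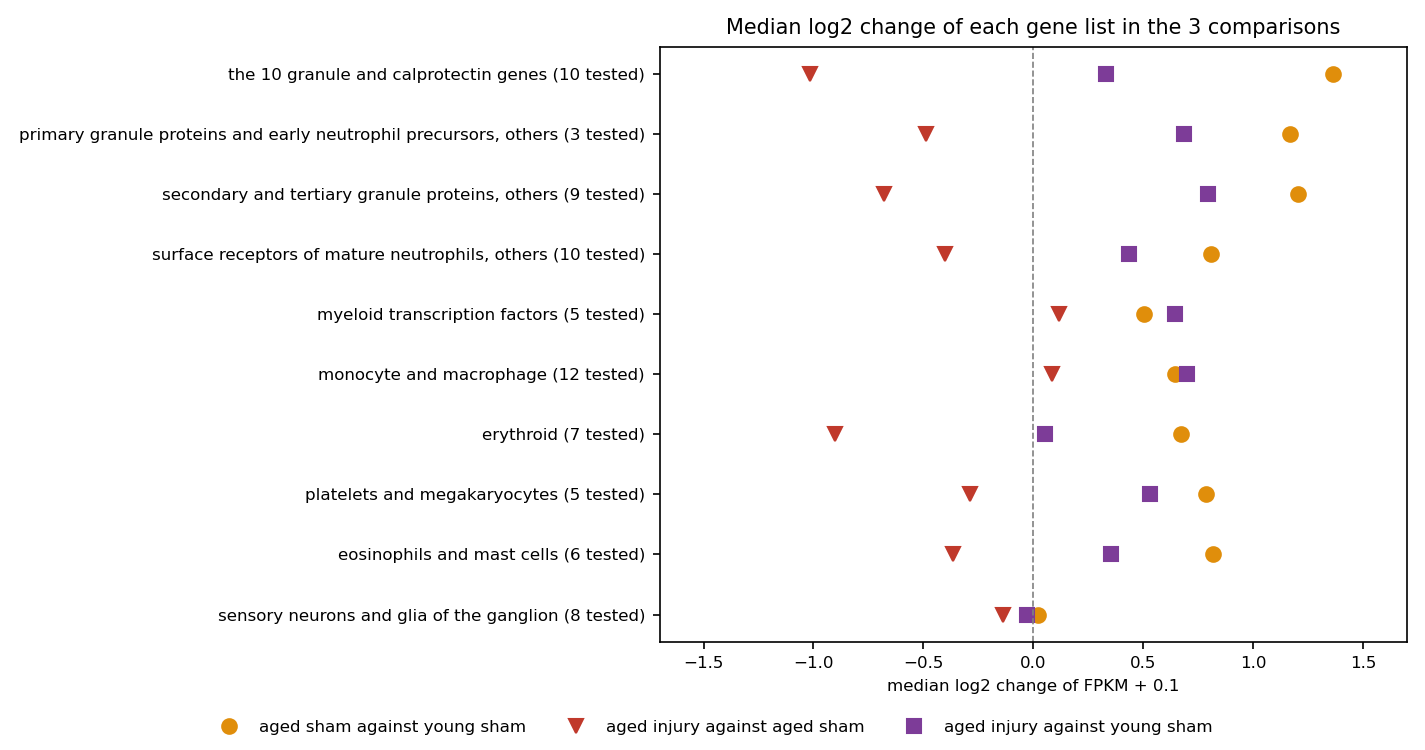
Median log2 change of FPKM + 0.1 (x axis) of each gene list (rows) in the 3 comparisons (circles, triangles and squares). The granule and calprotectin genes have the lowest injury median of the lists shown, -1.02, next to the erythroid genes at -0.90, while the ganglion list stays near 0.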

How the data were processed

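The deposited values are FPKM made by the authors, as the deposited table's name and values show. According to the submitters' processing notes, the build was mm10, and the tools, listed without roles, were FastQC 0.10.1, HTSeq 0.6.0, TopHat2 2.0.12 with Bowtie2 2.2.3, R 3.1.1 with limma 3.22.7 and edgeR 3.8.6, and SAMtools 0.1.19. Neither annotation release nor strand handling is given in the sources used here. Columns were assigned by the age, treatment and number in their names.

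Genes averaging 0.2 FPKM or more (over 9 libraries; 17601 of 45904 identifiers, 16841 with a symbol in GENCODE M21) were tested on log2(FPKM + 0.1) with limma 3.58.1 in R 4.3.3, with a variance trend and all 9 libraries in 1 fit. Tests were two-sided and adjusted by the Benjamini-Hochberg method over all 17601 genes; an adjusted p under 0.05 is a call. Because 0.1 FPKM was added before the logarithm, fold changes of low genes are understated. Spread between pools of 2 mice is what the p-values measure. In 17578 tested genes (99.9%) values were whole multiples of 1 fragment within 0.001, with multiples of up to 20000 tried, and these recovered fragments served for depth and for 1 added alternative, limma voom.

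Members and gene lists were chosen with earlier results of these data known. The 10 genes are all reported; from other lists, called genes and up to 4 with the smallest p per list and comparison could be named, and any other gene was named after its values were seen. Alternatives covered the pseudocount, the filter, scaling, the samples in the fit, library weights, a replicate block and leaving out each library. The script was checked on simulated data. Promoters came from RefSeq (GRCm38.p6), in which all 10 genes matched.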

Additional observations from a re-analysis of the deposited data

How the results depend on the processing

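Direction held for all 10 genes under every alternative run for age and for injury in aged mice; calls did not. For age, 445 higher and 262 lower calls (707) became 239 with no filter, 31 with the 2 groups alone, 101 with the replicate block, 2020 with array weights (libraries weighted by their own spread) and 1072 with voom on recovered fragments, an alternative chosen after seeing the data; without single libraries they ran from 23 to 1536. The 7 calls among the 10 genes became 1 (Camp), 0 and 0 with no filter, the 2 groups alone and the replicate block, and 0 to 7 without single libraries. For injury, 723 genes became 302 with the 2 groups alone and 273 with the block, and 151 to 740 without single libraries; the 3 calls became 1 (Ltf) with no filter, 0 with the 2 groups alone, 0 with the block and 5 with voom, and 0 to 4 without single libraries. Aged injury against young sham gave 2304 genes, 3755 with array weights, and 869 to 2365 without single libraries, and 0 of the 10 genes in every fit. The cause of these shifts was not tested.

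Signs turned only in aged injury against young sham, where none of the 10 was called: Mmp8 to -0.021 with quantile normalization, and Ltf, at -0.021 in the reported fit, to 0.059 with array weights and 0.0087 with voom. Without single libraries Ngp ran from -0.034 to 0.41, Ltf from -0.28 to 0.15, Mmp8 from -0.085 to 0.30 and Chil3 from -0.18 to 0.39; the low ends for Ngp, Mmp8 and Chil3 came without aged injury replicate 1. The cause was not tested.

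Replicate numbers did not pair aged sham with young sham libraries: the correlation of deviations between same-numbered libraries was -0.03, -0.07 and -0.05. Between aged injury and aged sham libraries it was 0.245, 0.270 and 0.0625. Each aged injury library correlated best with its own number in aged sham (3 of 3), a hint from the data, not the design. Depth limits Mpo and Elane most, with as few as 4 and 2 fragments in a library.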

Other observations

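The genes with the pattern most like the mean of the 10, by Pearson's r over the 9 libraries among 13325 genes at a mean of at least 1 FPKM, were Mmp9 (r = 0.955), Cabp7 (0.948), Cd177 (0.946), Elmod3 (0.945), Qsox2 (0.943), Arsb (0.935), Irf3 (0.932) and Abhd12 (0.932). Mmp9 and Cd177 are neutrophil genes of the granule list. The libraries share their depth and scaling across genes, and no test was made.

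Among platelet genes, Pf4 rose 1.72-fold in aged sham against young sham ganglia (8.60 ± 1.46 and 4.91 ± 0.315 FPKM, limma adjusted p = 0.0253), and 0 of 5 passed for injury (2 at an unadjusted p under 0.05, 1 with voom). The mast cell tryptase Tpsb2 rose 2.12-fold with age (5.50 ± 1.05 and 2.56 ± 0.550 FPKM, adjusted p = 0.0415), and 0 of 6 eosinophil and mast cell genes passed for injury (0 at an unadjusted p under 0.05, 0 with voom). T cell genes summed to 4.58 to 43.2 FPKM in aged injury, 2.67 to 33.2 FPKM in aged sham and 0.921 to 1.13 FPKM in young sham libraries. B and plasma cell genes summed to 269 to 2293 FPKM in aged injury, 75.3 to 587 FPKM in aged sham and 12.9 to 15.2 FPKM in young sham libraries. Neither lymphocyte sum was lower in aged injury than in aged sham ganglia at either end of its range.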
